A study of Mus musculus with 12 samples.

Results

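B16 cells, an established mouse melanoma line, that lacked Adar were set against B16 cells that kept it after both had received interferon-beta (IFNb). The members are the 3 Adar-null and 3 control libraries with IFNb, chosen by their labels, which are 6 of 12 libraries in all. The Adar-null cells carried Adar sgRNA 1 and the control cells the non-targeting guide, control sgRNA 5. Both came from a transient transfection with Cas9 and guide plasmids, after which cells were subcloned and checked for loss of Adar. The Adar-null state is represented by 1 guide, so a difference between the genotypes and a difference between the subclones cannot be told apart. Both groups of 3 libraries had IFNb at 1000 U/mL for 36 h. The other 6 libraries, 3 of each genotype, had the vehicle, PBS with 0.1% BSA, for the same time, and they entered the same fit. Cells that received interferon-gamma were not analysed here. Whether replicate libraries stem from separate cultures is not said in the labels, so the p-values measure the spread between these libraries only, which may be technical.

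ADAR1, the product of Adar, converts adenosines to inosines in double-stranded RNA of the cell itself. Without this editing, such RNA can be bound by sensors of viral RNA: MDA5 (Ifih1), which signals to type I interferon and NF-kB, the kinase PKR (Eif2ak2), which phosphorylates eIF2alpha and so limits translation while favouring ATF4, and ZBP1, which can start necroptosis. Interferon-beta raises the levels of all of these sensors and of ADAR1 itself through a complex of STAT proteins with IRF9, which binds interferon-stimulated response elements.

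The 6 libraries held between 5375649 and 7114709 counts, of which the 45S ribosomal RNA precursor Rn45s took between 24.9% and 28.5%, highest in the Adar-null libraries. Genes detected numbered 13739 to 14177 in the control libraries and 14419 to 14767 in the Adar-null libraries. On log2 CPM (counts in each 1000000, on library sizes scaled by the trimmed mean of M-values) the first principal component held 90.1% of the variance and separated the genotypes, with the control libraries between -53.2 and -50.9 and the Adar-null libraries between 51.4 and 52.5. The melanocytic genes Dct, Tyrp1, Pmel and Mitf were read in all 6, Pmel at 1832 CPM in the Adar-null and 2821 CPM in the control cells. The leukocyte markers Ptprc, Cd3e and Itgam had at most 1 count over a group, and 24 leukocyte markers together summed to 3.8 to 5.11 CPM in the Adar-null and 4.09 to 6.2 CPM in the control libraries. The 18 fibroblast, endothelial and epithelial markers summed to 25.2 to 29.6 CPM against 12.4 to 13.7 CPM, and the change in this sum was largely in Vwf (12.7 against 2.27 CPM), while Epcam had no count. Their part in the results was not tested. In bulk RNA, fewer cells that express a gene and less RNA per cell cannot be told apart.

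Adar itself, the targeted gene, was read in all 6 libraries. The Adar-null libraries had 418, 422 and 384 CPM and the control libraries 377, 384 and 392 CPM, and these ranges overlapped. The log2 fold change was 0.09 ± 0.05 (SE, n = 3 against 3; edgeR quasi-likelihood test with Benjamini-Hochberg adjustment, adjusted p = 0.0817), which did not pass. It passed with upper-quartile scaling (0.12, edgeR adjusted p = 0.00996) and without Adar-null library 3 (0.11, edgeR adjusted p = 0.03). With vehicle the transcript had been lower in the Adar-null cells, 59.5 against 72.2 CPM (edgeR adjusted p = 0.0017). A count over the whole gene includes transcripts that carry a small Cas9 lesion, so it does not check the loss of the protein.

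Most of the transcriptome differed between the treated states. Of 11561 genes tested, 4203 were higher (36.4%) and 4185 lower (36.2%) in the Adar-null cells at an adjusted p under 0.05 by edgeR, and these shares are the background against which each gene group below should be read. Most of these differences were small: 5914 called genes differed by less than 2-fold. At 2-fold or more, 1012 genes were higher and 1462 lower, at 4-fold or more 232 and 486, and at 16-fold or more 45 and 48. The median log2 fold change of all genes tested was 0.02, with quartiles of -0.49 and 0.45, and the 5th and 95th percentiles lay at -1.81 and 1.33, so the falls reached further than the rises. The scaling sets the bulk of genes near no change, so the median and the even split depend on it. Upper-quartile scaling gave 4462 higher and 3950 lower (median 0.054). Library size alone gave 4062 and 4271 (median -0.002). A change in the total RNA of a cell cannot be seen in such counts. The libraries of the genotypes did not overlap for 8559 genes (74% of those tested), with the Adar-null libraries above in 4282 and below in 4277. Genes at least 2-fold higher held 11.4% to 11.5% of the counts outside Rn45s in the Adar-null libraries and 3.83% to 3.93% in the control libraries, and genes at least 2-fold lower held 4.34% to 4.4% against 13.2%.

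**Figure D1:**
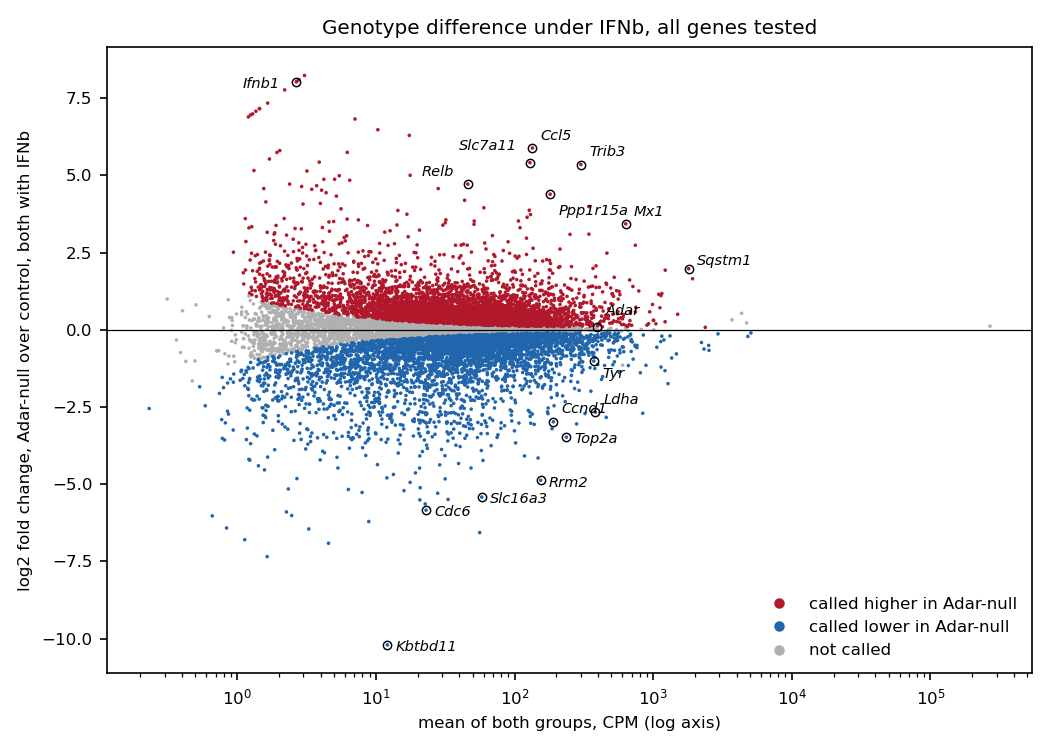
Each point is a gene tested: the x axis gives its mean CPM over both IFNb groups on a log axis and the y axis the edgeR log2 fold change of Adar-null over control cells. Red points were called higher (4203), blue lower (4185) and grey not called, and circles mark named genes. Fold changes of genes at 0 in a group, such as Ifnb1 and Kbtbd11, depend on the fit and are no bound.

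Some genes were read in only 1 of the genotypes. With IFNb, 291 genes had no count in the 3 control libraries and more than 3 counts over the Adar-null libraries, and for 156 of these both vehicle groups were also at 0. In the other direction 96 genes were at 0 in all Adar-null libraries, and 8 of these were also at 0 in both vehicle groups. Most of these genes had few counts. Only 28 of the 291 had 20 or more counts over the Adar-null libraries, and 12 were called. Of the 96, 7 had 20 or more counts over the control libraries, and 5 were called. The 8 with the most counts on the Adar-null side were Atp2a3, Hist1h2aa, Gm17384, Ifnb1, Il6, Gm12794, Otog and Soat2. Those on the control side were Kbtbd11, Aire, Cxcr3, Csdc2, S100a4, 4931408C20Rik, Gsta2 and Aqp4, of which S100a4, Gsta2 and Aqp4 were too low to test. Hist1h2aa, Ifnb1, Il6 and Gm12794, at 0 in all other groups, passed the filter for low counts only through the Adar-null libraries with IFNb. So did Gm17384 and Otog, with at most 3 counts over any other group. For these genes the call adds nothing to the counts. Atp2a3, a calcium pump of the endoplasmic reticulum, had 5.87, 6.46 and 6.01 CPM and was at least 38.99-fold higher, while with vehicle it stood at 2.27 CPM in control and 2.13 CPM in Adar-null cells. Kbtbd11 went the other way: its control libraries had 26.5, 21.2 and 24.9 CPM, and it was at least 146-fold lower in the Adar-null cells. Kbtbd11 was expressed in both genotypes with vehicle, at 40.1 and 29.3 CPM. These bounds are set against a floor of 3 counts over the group at 0.

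Among genes with a count in every library and no overlap, the largest rise was that of Apobr, a receptor for apolipoprotein B, with 20.1, 20.8 and 20.6 CPM against 0.356, 0.143 and 0.155 CPM. Angptl6, Ccl5, Slc7a11 and Trib3, described below, came next. After these, Neurl3, a ubiquitin ligase, had 38.3, 35.6 and 29.1 CPM against 0.534, 1.29 and 1.24 CPM, and Akap3, a sperm-associated scaffold protein, 10.2, 12.3 and 9.18 CPM against 0.356, 0.143 and 0.465 CPM. Apobr, Neurl3 and Akap3 had in common a control level near 1 CPM or lower with IFNb. With vehicle the control means were 6.28 CPM for Apobr, 0.388 CPM for Neurl3 and 0.821 CPM for Akap3, of which that of Apobr was the highest. The other members of the 20 largest rises were A930038C07Rik, Sspo, Cd74, Relb, Nell2, Cdsn, Casp4, Rnd1, Ppp1r15a, Slfn2, Nupr1, 2410018M08Rik and Aldh1l2, which hold members of the interferon, NF-kB and ATF4 groups described below. Of 23 genes known from the embryo at the 2-cell stage, 21 were too low to test and 2 were called higher. Gm12794, a member of these 2, was at 3.98, 3.76 and 2.21 CPM with no count in the other 9 libraries. It passed the filter for low counts only through the group where it was high. Its call therefore says nothing about the list.

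RNA of interferon-beta itself was detected in the Adar-null cells and not in the control cells. Ifnb1, which encodes the ligand that had been added to both groups, had 30, 33 and 34 counts in the Adar-null libraries (5.68, 4.96 and 5.38 CPM) and no count in the control libraries with IFNb or in either vehicle group. The level was at least 33.8-fold higher. Ifnb1 passed the filter for low counts only through these Adar-null libraries, so its call adds nothing to the counts. Of the other 18 interferon genes in the table, none was high enough to test: Ifna4 had 10 counts and Ifna13 had 8 over the Adar-null libraries, against 0 and 1 over the control libraries, and 12 of the 18 had no count in either IFNb group. Reads of the near-identical Ifna genes may be shared among them.

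Il6 and Ccl5, an inflammatory cytokine and a chemokine for T cells, went with Ifnb1. Il6 had 3.79, 4.66 and 4.75 CPM in the Adar-null libraries and no count in the other 9 libraries, and was at least 28.2-fold higher. Ccl5 had 267, 262 and 265 CPM against 5.52, 3.29 and 4.8 CPM, 59.3-fold higher (log2 5.88 ± 0.16 SE, edgeR adjusted p = 4.44e-87). All 3 Adar-null libraries lay far above all 3 control libraries, and Ccl5 was lowest with vehicle, at 0.924 CPM in control and 0.945 CPM in Adar-null cells. Cxcl10, the ligand of CXCR3 on activated T cells, had 1293, 1277 and 1309 CPM against 208, 182 and 193 CPM, 6.68-fold higher. Cxcl11, another CXCR3 ligand, rose by 3.19 ± 0.41 (SE) on the log2 scale, Lif by 2.39 ± 0.41 and the death ligand Tnfsf10 by 1.62 ± 0.21. Tnf had 15 counts over the Adar-null libraries and none in the others, too few to test. Of the 15 chemokine and cytokine genes tested, 9 rose, 1 fell and 5 were not called, with a median of 0.86 against 0.02 over all genes. The 1 that fell was Tnfsf9, the ligand of 4-1BB, with 5.11, 3.61 and 3.01 CPM against 15.7, 15.3 and 16.1 CPM.

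The stretches of 250 bases before the RefSeq starts of Ifnb1 (chr4:88522795-88523044, minus strand) and Cxcl10 (chr5:92348890-92349139, minus strand) are shown, in GRCm38.p6, the build that mm10 stands for. Both hold a match to an element bound by NF-kB. Only Cxcl10 holds a match to the letters used here for the element bound by interferon-activated factors. Looser forms of that element were not searched for, so the lack of a match does not show that Ifnb1 has none. Capitals mark matches on either strand to GGGANNTTC (an NF-kB element, kB) and to GAAANNGAA (an interferon-stimulated response element, ISRE), and the sequences run in the direction of transcription.
Ifnb1: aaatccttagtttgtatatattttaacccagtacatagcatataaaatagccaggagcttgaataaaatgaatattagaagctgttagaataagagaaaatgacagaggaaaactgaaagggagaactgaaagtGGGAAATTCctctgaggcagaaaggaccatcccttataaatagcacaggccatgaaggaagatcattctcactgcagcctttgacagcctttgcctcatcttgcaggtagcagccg
Cxcl10: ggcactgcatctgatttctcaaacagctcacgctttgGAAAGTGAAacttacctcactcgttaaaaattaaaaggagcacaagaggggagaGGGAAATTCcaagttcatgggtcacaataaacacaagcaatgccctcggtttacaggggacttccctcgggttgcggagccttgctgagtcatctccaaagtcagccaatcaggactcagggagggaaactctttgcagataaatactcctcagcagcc
The kB match begins 116 bases before the start of Ifnb1 and 159 bases before that of Cxcl10, and the ISRE match of Cxcl10 begins 213 bases before its start. A match describes letters and not binding.

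Antiviral effectors, the proteins by which interferon blocks viral replication, were mostly higher in the Adar-null cells although both groups had received IFNb. Of 55 tested, 46 rose, 6 fell and 3 were not called (median log2 fold change 0.61; 36.4% of all genes were called higher). Their summed level was 23600 to 24100 CPM in the Adar-null and 13900 to 14000 CPM in the control libraries. Mx1, a gene of the dynamin-like GTPases, had 1185, 1132 and 1165 CPM against 96.7, 116 and 109.6 CPM, 10.7-fold higher (log2 3.43 ± 0.06 SE, edgeR adjusted p = 2.92e-89). Whether these cells make an active Mx1 protein was not tested. Its relative Mx2 had 651, 596 and 603 CPM against 61.8, 77.9 and 75.3 CPM. Reads of this pair may be shared, and in each the groups stood well apart. Rsad2, encoding viperin, rose by 1.65 ± 0.06 (SE) on the log2 scale, Ifit2 by 1.93 ± 0.06, Ifit1 by 1.11 ± 0.05 and Isg15, a ubiquitin-like modifier, by 0.63 ± 0.05. Slfn2 and Slfn5 had no count with vehicle and at most 9 counts over the control libraries with IFNb, and reached 9.89 and 7.54 CPM in the Adar-null cells.

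The rise did not extend to all effectors. Ifitm3, which stops virus entry in endosomes, had 389, 394 and 397 CPM against 722, 652 and 752 CPM and fell by 0.85 ± 0.05 (SE) on the log2 scale. Ifitm2 (-0.99), Lgals3bp (-0.91), Slfn9 (-1.43), Oas2 (-0.26) and Bst2 (-0.15), which encodes tetherin, were also lower. For Ifitm3 the IFNb level in both genotypes stood above the vehicle level of 8.38 CPM in control cells. For Oas2 the libraries overlapped.

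Guanylate-binding proteins and immunity-related GTPases, which attack the membranes around pathogens, rose in 16 of 19 members tested, with 1 fall and a median of 0.89. Gbp2 had 272, 279 and 296 CPM against 61.2, 57.5 and 57.04 CPM, and Gbp4 had 71.96, 61.5 and 62.6 CPM against 9.97, 10.9 and 8.37 CPM. Gbp10 had 5.87, 6.46 and 6.33 CPM against 3 counts over the control libraries, and Gbp5 rose by 3.91 ± 0.45 (SE) on the log2 scale. For these genes the libraries of the genotypes did not overlap. Irgm1, a regulator of this family, was the member that fell, by 0.17 ± 0.05. These genes lie in clusters of close copies, so counts of single members are uncertain.

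Among the sensors of nucleic acid and their adaptors, 15 of 27 rose, 9 fell and 3 were not called (median 0.47). Ifih1, which encodes MDA5, had 350.2, 363 and 341 CPM against 180.5, 173 and 176 CPM (log2 0.99 ± 0.05 SE, edgeR adjusted p = 8.13e-42). Ddx58, which encodes RIG-I, had 637, 675 and 640.4 CPM against 449, 458 and 454 CPM. Zbp1 had 160.4, 160.4 and 162 CPM against 112, 111 and 115 CPM and was near 0 in both vehicle groups. In all 3 genes every Adar-null library was above every control library. Eif2ak2, which encodes PKR, went slightly the other way, with 219, 209 and 198 CPM against 244, 257 and 234 CPM (log2 -0.23 ± 0.05 SE, edgeR adjusted p = 2.37e-06). The DNA sensor Ifi204 rose by 2.61 ± 0.10 and the nuclease Trex1 by 2.23 ± 0.09. Myd88, the adaptor of Toll-like receptors, rose by 1.34 ± 0.12, while Tmem173, which encodes STING, fell by 0.66 ± 0.09, and the PKR activator Prkra and Dicer1 by 0.76 ± 0.13 and 0.57 ± 0.06.

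The signalling chain below the interferon receptor was mixed, with 8 of 24 genes higher, 7 lower and 9 not called (median -0.07). Ifnar1, a receptor chain, had 75.8, 65.7 and 68.7 CPM against 105, 98.1 and 101 CPM and was lower. Stat2 had 339.8, 338 and 331 CPM against 110.0, 135 and 123 CPM and was higher. The feedback inhibitor Usp18, which silences the receptor, was 2.37-fold higher and Socs1 1.82-fold higher, whereas Socs3 was 2.32-fold lower and the phosphatase gene Ptpn6 4.09-fold lower. Of 9 interferon regulatory factors tested, 7 rose and 1 fell. Irf1 rose by 0.75 ± 0.07 (SE) on the log2 scale, Irf2 by 1.33 ± 0.11, Irf5 by 1.84 ± 0.29 and Irf9 by 0.50 ± 0.06. Irf7, the amplifier of interferon transcription, was the exception with 102, 107 and 114 CPM against 137, 133 and 136 CPM (edgeR adjusted p = 1.91e-07).

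Antigen presentation by MHC class I showed no uniform shift: 12 of 21 genes rose, 5 fell and 4 were not called, with a median of 0.15. B2m, the light chain, had 969, 970.1 and 1017 CPM against 1302, 1259 and 1291 CPM, and H2-K1 had 193, 177 and 199.8 CPM against 254, 247 and 271 CPM; both fell. H2-D1 had 798, 807 and 833 CPM against 554, 546 and 577 CPM and rose, as did Nlrc5, the activator of these genes (1.11 ± 0.06 SE on the log2 scale), and the peptide transporter genes Tap2 (1.17 ± 0.12) and Tap1 (0.15 ± 0.07). The H2 genes are near-identical in part, and reads may be split among them. With vehicle H2-K1 was already lower in the Adar-null cells, 5.63 against 17.00 CPM. Of the ligands of checkpoint receptors, Cd274, which encodes PD-L1, had 114, 119 and 117 CPM against 27.2, 28.5 and 26.7 CPM and was 4.25-fold higher, and Cd47 rose by 0.71 ± 0.06 on the log2 scale. Lgals9 fell by 0.69 ± 0.05 and Cd276 by 1.22 ± 0.15. The invariant chain gene Cd74 of the class II pathway rose from 0.405 to 12.6 CPM.

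NF-kB subunits and regulators were mostly higher in the Adar-null cells. Of 24 tested, 18 rose, 2 fell and 4 were not called (median 0.74). Relb had 89.2, 93.5 and 83.4 CPM against 3.56, 3.15 and 3.41 CPM, 26.4-fold higher (log2 4.72 ± 0.19 SE, edgeR adjusted p = 2.21e-63). Its partner Nfkb2, which encodes p100, had 129, 140.0 and 133 CPM against 28.1, 31.03 and 26.5 CPM. For both genes the control level with IFNb was at or below the vehicle level (6.72 CPM for Relb and 28.9 CPM for Nfkb2 in control cells), and the Adar-null level was several times above it. The inhibitors Nfkbia (1.57 ± 0.16 SE), Nfkbie (2.74 ± 0.11) and Tnfaip3 (2.78 ± 0.34) and the ubiquitin ligase gene Birc2 (1.34 ± 0.10) rose on the log2 scale. Nfkb1, the canonical subunit, rose by 0.44 ± 0.08. Map3k7, which encodes the upstream kinase TAK1, and Tnip1 fell by 0.28 ± 0.07 and 0.18 ± 0.08.

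Target genes of ATF4, the transcription factor of the integrated stress response, had the highest median of the gene groups with at least 3 members tested. Of 39 tested, 37 rose, 1 fell and 1 was not called, with a median log2 fold change of 2.07, and 35 rose 2-fold or more; their summed level was 10300 to 10800 CPM in the Adar-null and 2710 to 2750 CPM in the control libraries. Trib3, a pseudokinase that restrains ATF4, had 548, 592 and 624 CPM against 12.6, 15.02 and 15.3 CPM, 40.9-fold higher (log2 5.35 ± 0.10 SE, edgeR adjusted p = 1.45e-93). Slc7a11, the cystine importer, had 243, 261 and 254 CPM against 6.05, 5.86 and 5.89 CPM. Ppp1r15a, encoding GADD34, which leads the phosphatase that restores translation, had 328, 348 and 359.9 CPM against 14.9, 15.02 and 19.4 CPM. In all of these genes the control libraries with IFNb were the lowest of the 4 groups. The vehicle means in control and Adar-null cells were 324 and 296 CPM for Trib3, 138 and 135 CPM for Slc7a11, and 76.2 and 65.1 CPM for Ppp1r15a. The Adar-null libraries with IFNb thus lay above both vehicle groups in these 3 genes, and for Atf4 itself they lay near them: 600.2, 641 and 637 CPM against 147, 149 and 150.5 CPM in the control libraries, with vehicle means of 599 and 618 CPM.

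For the 3 members named next the control libraries with IFNb were again the lowest group. Chac1, which degrades glutathione, had 235, 243 and 239.8 CPM against 15.1, 17.6 and 16.1 CPM, and Nupr1, a stress-induced chromatin protein, 85.4, 77.3 and 86.1 CPM against 3.38, 5.29 and 4.65 CPM. Aldh1l2, a mitochondrial enzyme of folate metabolism, had 624, 660.4 and 658 CPM against 43.6, 37.9 and 41.4 CPM. Ddit3, encoding CHOP, was 3.81-fold higher, the asparagine synthetase gene Asns 3.96-fold higher and Angptl6, a secreted protein, 82.2-fold higher with 0.436 CPM in the control cells. Mthfd1l, a folate enzyme, was the member that fell (-0.17 ± 0.06 SE). Of the 20 cytosolic aminoacyl-tRNA synthetase genes, 15 rose, 2 fell and 3 were not called (median 0.99). Nars had 575, 586 and 609 CPM against 184, 178 and 178 CPM, with vehicle means of 482 and 484 CPM. Eprs (1.61 ± 0.06 SE on the log2 scale), Wars (1.63 ± 0.06), Cars (1.63 ± 0.06) and Aars (1.51 ± 0.06) rose likewise, while Qars and Kars fell by 0.66 ± 0.06 and 0.46 ± 0.06. Eif4ebp1, an inhibitor of cap-dependent translation, was 3.83-fold higher, and Sesn2, which restrains mTORC1, 3.82-fold higher.

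The stretches of 250 bases before the starts of Chac1 (chr2:119350992-119351241, plus strand) and Asns (chr6:7693210-7693459, minus strand) in GRCm38.p6 are shown because both hold the letters TGATGNAA, a composite element bound by C/EBP and ATF factors (CARE), which capitals mark on either strand.
Chac1: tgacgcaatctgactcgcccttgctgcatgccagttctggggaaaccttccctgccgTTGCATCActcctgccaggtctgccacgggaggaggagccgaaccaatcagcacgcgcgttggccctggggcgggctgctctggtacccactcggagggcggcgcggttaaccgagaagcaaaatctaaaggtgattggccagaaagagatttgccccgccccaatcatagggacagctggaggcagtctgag
Asns: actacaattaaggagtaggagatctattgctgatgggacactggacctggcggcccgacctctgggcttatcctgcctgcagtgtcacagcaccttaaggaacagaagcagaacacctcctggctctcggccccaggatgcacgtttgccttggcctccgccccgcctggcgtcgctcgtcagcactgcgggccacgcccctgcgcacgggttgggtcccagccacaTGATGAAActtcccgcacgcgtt
The match of Chac1 begins 193 bases before its start, and that of Asns begins 23 bases before its start. Of the other ATF4 targets searched for display, Slc7a11 also held a CARE match before its start. Trib3 held a match only after its start, and Ppp1r15a held none.

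Other stress pathways were mixed. In the unfolded protein response of the endoplasmic reticulum 12 of 25 genes fell and 10 rose (median -0.04), shares near or above those of all genes in both directions. The chaperone gene Hspa5, which encodes BiP, had 1414, 1491 and 1639 CPM against 684, 688 and 680.1 CPM, and the sensors and factors Ern1 (1.42 ± 0.09 SE), Atf6 (1.33 ± 0.06) and Xbp1 (1.27 ± 0.06) rose on the log2 scale, while the disulfide isomerase genes Pdia3, Pdia4 and Pdia6 fell (-0.56, -0.62 and -0.64). Among heat-shock and NRF2 genes 17 of 32 rose and 10 fell. Hmox1, haem oxygenase, had 428, 456 and 466 CPM against 48.6, 56.9 and 52.7 CPM and was 8.51-fold higher, and Srxn1 was 3.17-fold higher, but the NRF2 targets Prdx1 and Txn1 fell (-1.04 and -0.69), as did the chaperone genes Hspa8 and Hsp90aa1 (-0.84 and -0.63). Sqstm1, encoding the autophagy receptor p62, had 2782, 2936 and 2905 CPM against 727, 723 and 744 CPM. It was 3.94-fold higher, and 26 of 43 lysosome and autophagy genes rose with a median of 0.3, among them Gabarapl1, Ctsl and Lamp1 (1.32, 1.00 and 0.59), while 11 fell, Ctsz (-1.17) and Ctsb (-0.66) among them. Of the immediate early and MAPK feedback genes 14 of 30 rose and 11 fell. Atf3, a stress-induced repressor, had 195, 202 and 192 CPM against 15.5, 18.2 and 17.4 CPM, Jun was 2.3-fold and Junb 3.59-fold higher, while Fos (-0.62 ± 0.12 SE) and Myc (-0.77 ± 0.07) fell.

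Target genes of p53 rose in 19 of 30 members tested and fell in 7 (median 0.43). Bbc3, encoding the death-inducing protein PUMA, had 70.1, 80.4 and 73.6 CPM against 10.3, 11.3 and 11.2 CPM, 6.84-fold higher (edgeR adjusted p = 2.32e-49). Mdm2, the inhibitor of p53, had 223, 208 and 216 CPM against 86.7, 89.96 and 89.9 CPM. Cdkn1a, encoding the cyclin-dependent kinase inhibitor p21, had 854, 913 and 909.5 CPM against 599, 596 and 599.5 CPM. In these 3 genes all Adar-null libraries were above all control libraries, and the difference was smallest in Cdkn1a, which stood in both treated groups far above its vehicle means of 101 and 80.2 CPM. Ccng1 was not called (-0.01 ± 0.05 SE). Among apoptosis regulators 7 of 26 rose, 11 fell and 8 were not called: Bid rose (0.96 ± 0.10), and Casp8 (-0.67 ± 0.07), Bcl2l11 (-0.64 ± 0.14) and the protective genes Bcl2l1 (-0.38 ± 0.07) and Mcl1 (-0.29 ± 0.06) fell. Of the genes of necroptosis and pyroptosis, Casp4, a sensor of lipopolysaccharide, rose from 0.262 to 6.63 CPM and Mlkl, the executor of necroptosis, had 90.9, 89.8 and 86.5 CPM against 73.7, 73.4 and 66.2 CPM. Ripk1 rose by 0.57 ± 0.07, Gsdmd was not called (0.15 ± 0.21), and Ripk3, the kinase that activates MLKL, had no count in any of the 12 libraries.

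Genes of the dividing cell were lower in the Adar-null cells almost throughout. All 50 DNA replication genes tested fell (median log2 fold change -2.66), 49 of them by 2-fold or more, and 60 of 61 mitosis genes fell (median -2.75), 58 by 2-fold or more, where 36.2% of all genes were called lower. The replication genes summed to 957 to 977 CPM in the Adar-null and 5250 to 5310 CPM in the control libraries, and the mitosis genes to 820 to 901 against 4820 to 5000 CPM. Cdc6, which licenses replication origins, had 1.33, 0.601 and 0.475 CPM against 48.1, 44.9 and 42.6 CPM, 58.8-fold lower (log2 -5.84 ± 0.40 SE, edgeR adjusted p = 1.26e-52). Rrm2, the regulated subunit of ribonucleotide reductase, had 10.8, 11.7 and 8.07 CPM against 299, 302 and 295 CPM. Top2a, topoisomerase II alpha, had 31.8, 43.1 and 41.1 CPM against 448, 436 and 421 CPM. No Adar-null library of these genes came near the control range, and the vehicle means of both genotypes were also far above the Adar-null libraries with IFNb. These means in control and Adar-null cells were 26.5 and 28.3 CPM for Cdc6, 237 and 237 CPM for Rrm2, and 661 and 726 CPM for Top2a.

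Genes of these functions were also among the 20 largest falls of all genes with a count in every library. The PCNA-associated factor 2810417H13Rik (Pclaf) had 1.14, 1.05 and 1.27 CPM against 117, 110.4 and 105 CPM, 96.2-fold lower. The thymidine kinase gene Tk1 was 45.7-fold lower, the repressor E2f8 50.9-fold, the checkpoint mediator Clspn 28.6-fold and the mitotic kinase gene Aurkb 22.3-fold. Mcm2, a subunit of the replicative helicase, was among the less affected genes at 3.73-fold lower, and Pcna was 5.34-fold lower. Mki67, the proliferation marker, had 53.97, 72.9 and 53.5 CPM against 528, 480.4 and 494 CPM and Ccnb1, cyclin B1, 4.36, 3.31 and 3.32 CPM against 37.03, 34.6 and 40.1 CPM. Of the 45 DNA repair and checkpoint genes 34 fell and 5 rose (median -1.45): Brca1 and Exo1 fell by 2.95 ± 0.09 and 4.33 ± 0.19 (SE) on the log2 scale, while Nbn and Atr rose by 0.30 ± 0.09 and 0.23 ± 0.07. Replication-dependent histone genes fell in 25 of 28 members (median -1.64), Hist1h2af most, at 39.7-fold lower. Hist1h1a (1.57 ± 0.19) and Hist1h4i (0.91 ± 0.13) rose, and Hist1h2aa, a testis histone gene, was read in the Adar-null cells only, at 5.49, 6.46 and 4.75 CPM. Histone genes are close copies of each other, so reads may be split among them.

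Regulators of the step from G1 to S phase fell with them in 22 of 31 genes and rose in 4 (median -1.02). Ccnd1, cyclin D1, had 40.7, 40.3 and 47.6 CPM against 334, 335 and 347 CPM and was 7.89-fold lower. Its vehicle means of 99.2 and 91.5 CPM lay between the treated groups. Ccne1, cyclin E1, had 5.11, 5.71 and 5.54 CPM against 76.4, 76.8 and 73.6 CPM, and E2f1 4.54, 6.46 and 7.59 CPM against 60.5, 63.4 and 66.96 CPM. Cdkn1b, encoding the inhibitor p27, rose by 1.03 ± 0.06 (SE) on the log2 scale. Cdkn2b and Cdkn2a had no count in any library. The DNA methylation genes Dnmt1 and Uhrf1, which copy methylation at the replication fork, fell by 2.46 ± 0.07 and 4.15 ± 0.10, and 15 of 25 genes of repeat silencing fell and 5 rose.

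The 250 bases before a RefSeq start of Mcm2 (chr6:88898781-88899030, minus strand) and of Top2a (chr11:99024190-99024439, minus strand) in GRCm38.p6 are shown for the letters TTTGAA, the cell cycle homology region (CHR) bound by the DREAM complex. Capitals mark matches on either strand.
Mcm2: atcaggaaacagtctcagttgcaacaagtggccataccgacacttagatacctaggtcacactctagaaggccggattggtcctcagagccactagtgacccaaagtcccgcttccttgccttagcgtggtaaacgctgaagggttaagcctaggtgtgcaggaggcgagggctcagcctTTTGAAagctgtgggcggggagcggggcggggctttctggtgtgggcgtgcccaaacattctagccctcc
Top2a: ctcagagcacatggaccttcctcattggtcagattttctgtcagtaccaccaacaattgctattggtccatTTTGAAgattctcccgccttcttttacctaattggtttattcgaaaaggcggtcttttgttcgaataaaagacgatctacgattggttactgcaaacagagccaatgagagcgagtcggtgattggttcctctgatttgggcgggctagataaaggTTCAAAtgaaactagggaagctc
The CHR match of Mcm2 begins 70 bases before its start, and those of Top2a begin 179 and 23 bases before the start used. For Top2a the annotated gene reaches to base 99024199, slightly upstream of that start. Of the other genes of the dividing cell searched for display, E2f8 also held a CHR match before its start. Rrm2, Cdc6 and Ccnb1 held none. Cdc6 held a match to TTTCCCGC, letters bound by E2F factors, that begins 138 bases before its start. Among DNA replication genes, to which Mcm2 belongs, a CHR match was no more frequent than in all promoter windows counted below (14.3% against 17.9%).

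**Figure D2:**
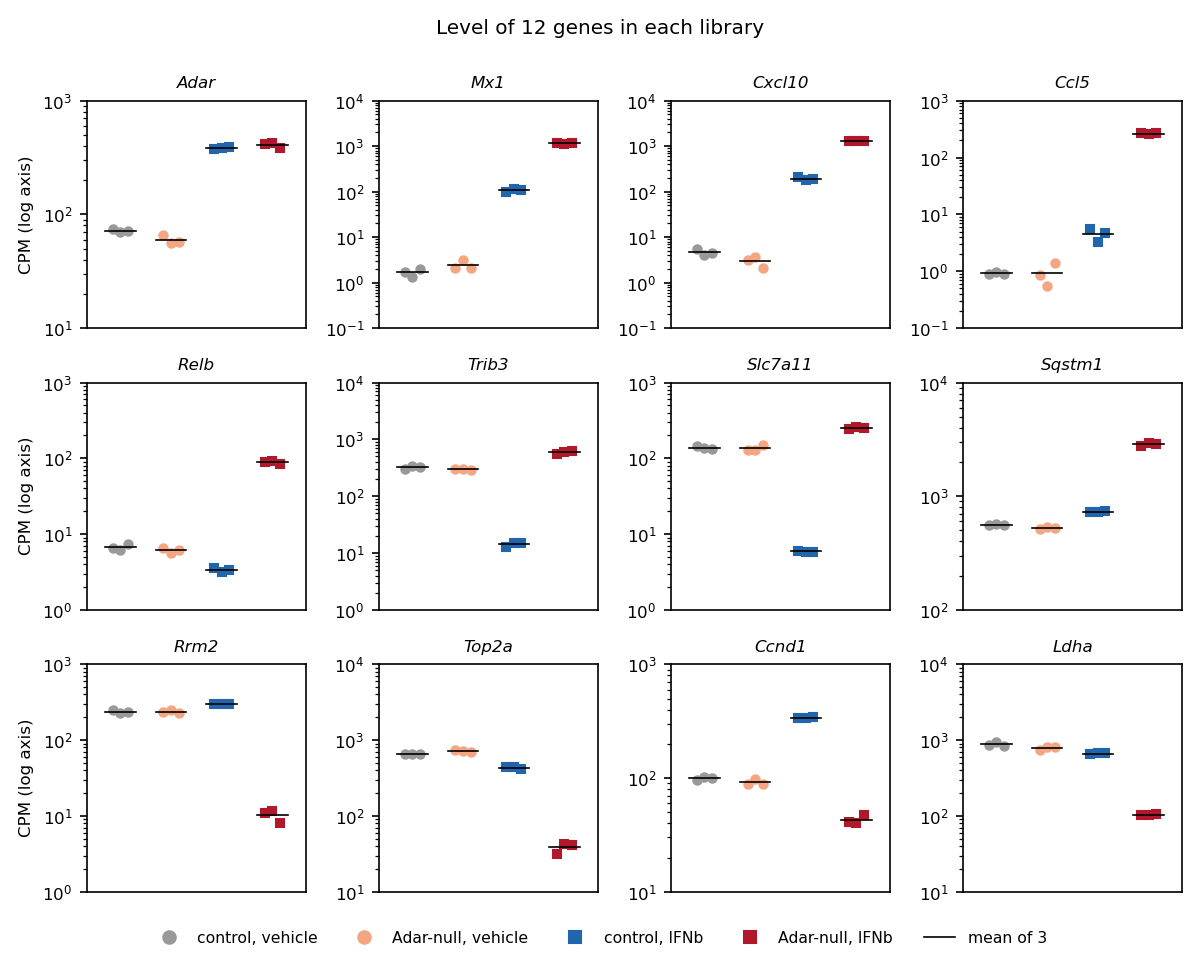
CPM of 12 genes on log axes in each of the 12 libraries (points) with the mean of each group of 3 (bars), by genotype and treatment. The Adar libraries of the treated groups overlap, the interferon, NF-kB and ATF4 genes are higher in the Adar-null cells with IFNb, and Rrm2, Top2a, Ccnd1 and Ldha are lower.

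Genes of energy and sterol metabolism were mostly lower. Of 38 glycolysis and hypoxia genes 30 fell and 5 rose (median -1.47), from 6720 to 7050 CPM in sum in the control to 2850 to 2940 CPM in the Adar-null libraries. Ldha, lactate dehydrogenase A, had 103, 104 and 106 CPM against 648, 667 and 672 CPM, 6.35-fold lower (edgeR adjusted p = 1.26e-83). The lactate exporter gene Slc16a3 had 3.03, 2.4 and 2.53 CPM against 115, 110.5 and 115 CPM, and Pfkl, liver-type phosphofructokinase, 27.8, 25.9 and 32.4 CPM against 213, 239 and 249 CPM. These ranges were far apart, and the glucose transporter gene Slc2a1, Pkm2 and Pdk1 fell too (-1.51, -1.39 and -3.41). The 5 that rose included Eno2 (2.15), Ddit4 (1.73), Pfkfb3 (1.08) and Vegfa (0.86), of which Ddit4 and Vegfa are known also as targets of ATF4. In this list 24 of 38 genes were already called lower with vehicle, with a median of -0.25 there. Of 37 sterol synthesis and SREBP genes 34 fell and 1 rose (median -1.16), and 12 had been called lower with vehicle (median -0.20). Sqle, squalene epoxidase, had 68.4, 68.7 and 71.98 CPM against 136, 138 and 129 CPM, and Fdps, farnesyl diphosphate synthase, 2.46, 4.06 and 3.48 CPM against 18.5, 16.3 and 18.9 CPM. For both genes the libraries of the genotypes did not overlap. The 1 that rose was Abca1, a cholesterol exporter that LXR and not SREBP induces (0.22 ± 0.09 SE), and its libraries overlapped. Nuclear genes of the respiratory chain fell in 46 of 57 members, by smaller amounts (median -0.48), with Atp5b at 581, 601 and 635 CPM against 895, 864 and 882 CPM.

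Genes of translation and RNA processing had medians within the quartiles of all genes (-0.49 and 0.45). Ribosome biogenesis genes were called higher, and splicing factor genes lower, more often than all genes (36.4% higher and 36.2% lower). Ribosomal protein genes rose in 19 of 64 members and fell in 12, with 33 not called (median 0.12), and many have processed pseudogenes that can share their reads. Translation factors rose in 20 of 45 and fell in 18. Eif2s1, which encodes the eIF2alpha that PKR phosphorylates, had 66.5, 68.7 and 68.03 CPM against 71.2, 64.4 and 64.2 CPM and was not called. Ribosome biogenesis and MYC target genes rose in 25 of 42 and fell in 9 (median 0.27) while Myc itself was lower. Of 47 splicing factor genes 26 fell and 9 rose (median -0.19), with the kinase genes Clk4 (1.69 ± 0.08 SE) and Clk1 (1.23 ± 0.14) as the largest rises. Of the other RNA editing enzymes Adarb1, which encodes ADAR2, had 3.6, 6.46 and 6.8 CPM against 11.2, 14.02 and 12.1 CPM and fell, and Apobec1, a cytidine deaminase, had 91.7, 94.6 and 102 CPM against 26.4, 22.2 and 25.3 CPM and rose.

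Genes of the melanocyte were mostly lower in the Adar-null cells. Of 30 pigment genes 24 fell and 4 rose (median -0.72). Mitf, the master regulator, had 661, 620.5 and 614 CPM against 920.0, 895 and 874 CPM, and Tyr, tyrosinase, 257, 237 and 248 CPM against 508, 517 and 471 CPM. The receptor gene Mc1r was 3.56-fold and Kit 5.92-fold lower, whereas Dct and Tyrp1 differed little (-0.13 ± 0.06 and -0.22 ± 0.06 SE on the log2 scale), and Pax3, an upstream factor, rose by 0.73 ± 0.06. Genes of dedifferentiated melanoma rose in 8 of 18 and fell in 5: Axl had 72.2, 75.3 and 79.7 CPM against 51.8, 64.4 and 57.97 CPM and Snai2 was 3.75-fold higher, but Vim, vimentin, had 668, 699 and 718 CPM against 1773, 1723 and 1725 CPM. Of 27 matrix genes 22 fell and 4 rose (median -1.02). Sparc was 2.46-fold and Col4a1 8.93-fold lower, and fibronectin (Fn1) had 272, 280.5 and 284 CPM against 149, 128 and 138 CPM and rose. With vehicle 5 of the 30 pigment genes were already called lower and 1 higher, Oca2, Cited1 and Slc24a4 among the lower ones. Of the 27 matrix genes 11 were called lower with vehicle and 1 higher (median -0.17), with Loxl2 among those lower.

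**Figure D3:**
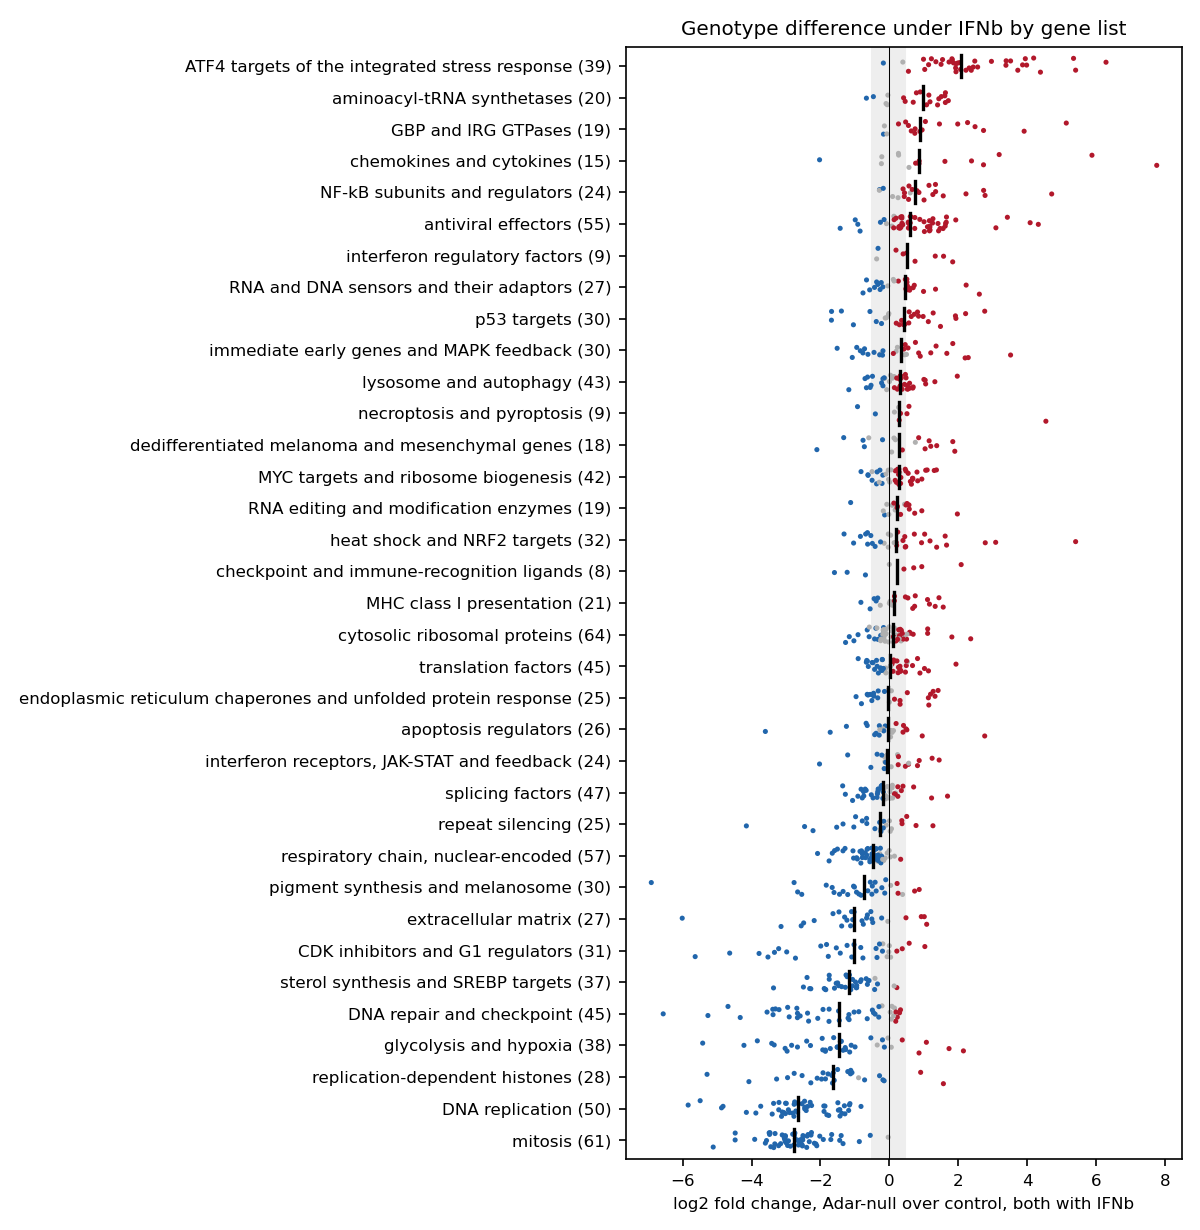
Each row is a gene group with at least 8 members tested (number in brackets) and each point a member, at its edgeR log2 fold change of Adar-null over control cells with IFNb (red called higher, blue called lower, grey not called; vertical scatter is random). Black bars are medians, from 2.07 for ATF4 targets to -2.75 for mitosis, and the grey band spans the quartiles of all genes, -0.49 to 0.45.

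Matches to these elements were counted in all RefSeq promoter windows of 300 bases (250 before and 50 after the start), of which the table holds 32851. The letters spelled above, and TTTCCCGC or TTTGGCGC for E2F factors, were searched on both strands, and matches to different motifs may overlap. An ISRE match was found in 25 of 60 windows of antiviral effectors (41.7%; 8.56% of all windows), and 44 of the 55 genes tested had a window. A kB match was in 4 of 14 windows of chemokine and cytokine genes (28.6%) and 5 of 28 windows of NF-kB genes (17.9%), against 3.94% of all. A CARE match was in 11 of 40 windows of ATF4 targets (27.5% against 3.97%). Of the windows of DNA replication genes 13 of 49 held an E2F match (26.5% against 1.56%), and of those of mitosis genes 38 of 57 held a CHR match (66.7% against 17.9%). A CHR match was in 7 of the 49 windows of replication genes (14.3%), below the share of all windows. Over the 11827 windows of genes tested the shares were 6.94% for ISRE, 3.59% for kB, 2.22% for CARE, 2.95% for E2F and 12% for CHR, but only 79.9% of these genes had a window. In each of the lists named at least 80% of the genes tested had a window. For GBP and IRG genes, for tRNA synthetases, for sterol genes and for the genes changed by 4-fold or more this share was lower, and no count is given. The lists were themselves drawn up from known targets of these factors, so the counts describe the lists. A gene with several RefSeq starts has several windows, some of them inside the gene.

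**Figure D4:**
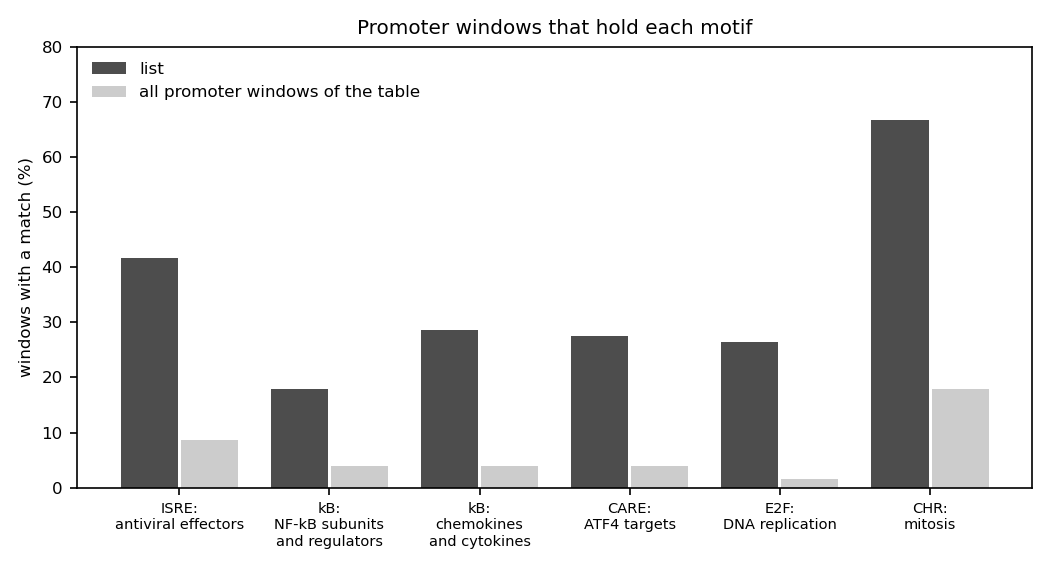
Share of 300-base promoter windows (%) with at least 1 match to the motif named below each pair of bars, for the windows of a gene list (dark) and for all 32851 windows (light). The share is higher in the list in all 6 pairs, from 17.9% against 3.94% for kB in NF-kB genes to 66.7% against 17.9% for CHR in mitosis genes.

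The genotypes differed far less with vehicle. With vehicle 753 genes were called between the genotypes (6.51% of those tested), 285 higher and 468 lower in the Adar-null cells, 52 of them by 2-fold or more, and the median absolute log2 fold change was 0.10 against 0.46 with IFNb. The vehicle libraries are not part of the IFNb comparison, so the contrasts share no sample. Both contrasts come from 1 fit and share its estimate of the spread, so their calls are not independent. Of the vehicle calls 426 (56.6%) were called in the same direction with IFNb, which is 5.08% of the IFNb calls, and 209 in the opposite direction. Of all genes tested 36.4% were called higher and 36.2% lower with IFNb, so many matches in direction would arise without any relation. Leaving out control vehicle library 2, Adar-null vehicle library 1 or Adar-null vehicle library 2 brought the vehicle count to 308, 393 or 463, and DESeq2 called 324. The genotype difference itself differed between IFNb and vehicle for 6855 genes (59.3%; edgeR interaction term, adjusted p under 0.05), 3308 upward and 3547 downward. All 50 replication genes and 60 of 61 mitosis genes passed this test downward, and 36 of 39 ATF4 targets and 17 of 24 NF-kB genes passed it upward. Of 55 antiviral effectors 27 passed it upward and 5 downward. For Ifnb1 and Il6, which are at 0 in 3 of the 4 groups, the interaction was not called (edgeR adjusted p = 1 and 1).

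Some genes differed between the genotypes with vehicle as well as with IFNb. Of the genes called and at least 2-fold different with IFNb, 251 had no called interaction, and 34 of these were also called with vehicle. A missed interaction call does not show that the differences were equal. Btn2a2, a butyrophilin, had 0, 0.15 and 0 CPM in the Adar-null against 6.76, 8.58 and 4.18 CPM in the control libraries with IFNb, and 0 against 9.07 CPM with vehicle. Zfhx4, a zinc finger factor, had 0, 0 and 0.158 CPM against 4.99, 4.72 and 3.72 CPM, and Ubqln2, a ubiquilin, 0.379, 0 and 0.158 CPM against 5.7, 5.29 and 4.65 CPM. Both were also near 0 in the Adar-null cells with vehicle (0.0594 and 0.103 CPM). Jph2 and Spp1, osteopontin, completed the 5 largest falls with vehicle, and they were lower with IFNb too, at 0.113 against 3.03 CPM and 0.661 against 3.8 CPM. The 5 largest rises with vehicle, Nkd2, Podxl, Fam160a1, B230319C09Rik and Spnb3, were not higher with IFNb: 4 were not called, and Nkd2, an inhibitor of Wnt signalling, was lower.

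**Figure D5:**
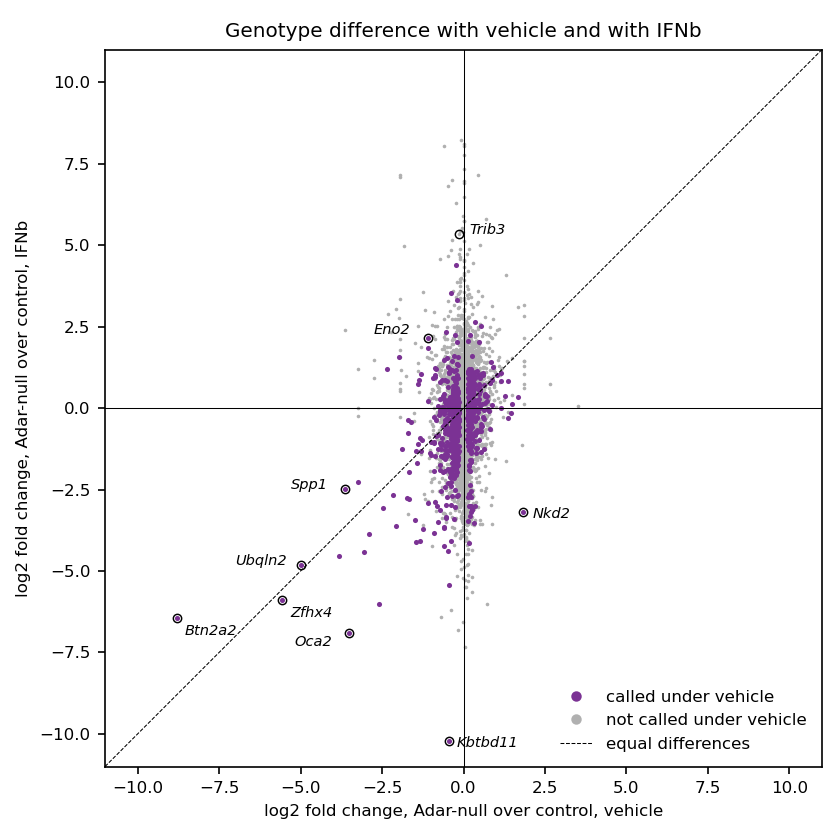
Each point is a gene tested, with its edgeR log2 fold change of Adar-null over control cells with vehicle on the x axis and with IFNb on the y axis; purple points (753) were called with vehicle. Most genes spread along the y axis only, while Btn2a2, Zfhx4, Ubqln2 and Spp1 lie near the line of equal differences. Fold changes of genes at 0 in a group depend on the fit.

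By chromosome, with 11472 of the 11561 genes placed by RefSeq symbol, the share called under IFNb ran from 67.7% on chromosome X to 77.5% on chromosome 6. The median log2 fold change under IFNb lay between -0.13 (X) and 0.1 (7). With vehicle, chromosome 2 held 88 genes called lower and 7 called higher, and chromosome 6 held 46 higher and 11 lower. Their medians with vehicle were -0.06 and 0.05. With IFNb chromosome 2 had 31.3% of its genes called higher and 40.5% lower, and chromosome 6 had 42.2% and 35.3%. Whether the copy number of these chromosomes differs between the subclones was not tested.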

How the data were processed

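Libraries were made from ribosomal RNA-depleted RNA with a directional kit and sequenced as paired reads of 37 bases, per the labels' protocols. Per the submitters' processing notes, the build was mm10 and the tools named are HTSeq 0.6.1p1, Bowtie2 2.2.4, DESeq2, bcl2fastq 2.19.1 and Trimmomatic 0.33. The strand setting of the counting is not given in the sources used here, so genes that overlap another gene on either strand are uncertain. The authors deposited raw counts per gene symbol for 23336 symbols, 25 of which are gene symbols turned into dates, kept in the fit and not named here. Rn45s stayed in the library sizes.

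From these counts, edgeR 4.0.16 (limma 3.58.1, R 4.3.3) kept 11561 genes by its filterByExpr function, scaled libraries by the trimmed mean of M-values and fitted 4 group means over 12 libraries with the robust quasi-likelihood test. Each of 3 contrasts (Adar-null against control with IFNb, the same with vehicle, and their difference) was adjusted over all genes by the Benjamini-Hochberg method with a threshold of 0.05. Fold changes are Adar-null over control, and SE is the fitted standard error. Depth limits low genes: with genes split by mean level into 4 equal groups, 58.8% of the lowest group and 83.3% of the highest were called. The fit was checked on simulated counts in which few genes changed and all genes had the same spread. Such counts do not check the scaling or the error rate where most genes differ, as they do here.

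The members and the gene lists were chosen with earlier results of these data known. Genes named are Adar, the 20 largest rises and falls that were called without overlap (mean of at least 5 CPM in the higher group, a count in every library), the 8 genes with most counts among those at 0 in a group, chosen genes of each list with up to 6 called members in each direction, and the 5 largest called vehicle differences each way. Other tools, scalings, filters and left-out libraries were tried as alternatives, DESeq2 1.42.0 among them. Promoters, symbols and chromosomes come from RefSeq, GRCm38.p6.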

Additional observations from a re-analysis of the deposited data

Results flagged for a closer look

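Under IFNb and under vehicle the genotype difference was not the same for 6855 genes, by the edgeR interaction term. Adar was among them: its difference moved by 0.36 on the log2 scale, from -0.28 with vehicle to 0.09 with IFNb (edgeR adjusted p = 2.93e-05). Some genes were called in opposite directions in the 2 media. Eno2, the neuronal enolase, was lower in the Adar-null cells with vehicle (-1.08) and higher with IFNb (2.15), a move of 3.24 (edgeR adjusted p = 1.15e-20). Nkd2 went from 1.81 to -3.18, a move of -4.99 (edgeR adjusted p = 1.46e-07), at a level of 2.17 CPM in the control and 0.2 CPM in the Adar-null cells with IFNb.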

How the results depend on the processing

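No named gene that passed the threshold changed sign under any alternative run, and of the counts of list members called 1742 stayed within 1.5 times the reported count and 98 did not (glmTreat included). Against a change of 1.5-fold (edgeR's glmTreat), which asks for a larger change than any does, 1435 genes were higher and 1871 lower with IFNb, 17 were called with vehicle and 2592 had a different genotype effect. DESeq2 called 324 genes with vehicle. Adar passed the threshold with upper-quartile scaling (0.12, edgeR adjusted p = 0.00996) and without Adar-null IFNb library 3 (0.11, edgeR adjusted p = 0.03). Leaving out 1 of the 12 libraries at a time gave 3904 to 4245 genes higher, 4037 to 4226 lower, 308 to 801 called with vehicle, 6526 to 6702 with a different genotype effect, and 0.05 to 0.11 for Adar. The cause of these moves was not tested. Of 434 named genes under 23 alternatives, 133 changed their side of the threshold at least once.

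Between the genotypes, the deviations of same-numbered libraries had correlations of -0.1, 0.018 and -0.028 with IFNb. With vehicle these were 0.038, 0.062 and -0.006. Differently numbered libraries had correlations from -0.087 to 0.1 with IFNb and from -0.07 to 0.031 with vehicle. With 3 libraries in a group these values do not settle pairing, and whether the numbers pair the libraries was not tested. With the replicate number as a block, 4177 genes were higher and 4170 lower.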
